A study of Mus musculus with 3 samples.

Results

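Isg20, Rgs10, Inpp4b, Ahr, Gpr155, 1700017B05Rik and Dscam, 7 of the 25906 genes counted, were followed through natural killer (NK) cells of lung and blood. They were selected because an earlier clustering of these same cells put them among the leading genes of lung NK cells that accompany metastasis. Their levels between groups and their occurrence within cells are therefore given as a description, without a test. Cells came from wild-type female C57BL/6 mice of 9 weeks, either naive or injected intravenously with PyMT mammary tumor cells 6 h or 14 days earlier. Live NK1.1+NKp46+ cells of lung and blood were sorted, marked with hashtag B0304 for lung or B0306 for blood in the order the methods name them, and loaded as 1 library per time point. The tags do not tell mice apart, so each of the 6 groups is 1 sample, and the library cannot be told apart from the time point.

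The 7 genes work at different places in a cell. Isg20 encodes an interferon-induced exonuclease that degrades RNA, and Ahr encodes the aryl hydrocarbon receptor, a ligand-activated transcription factor known for its part in tissue-resident lymphocytes. Rgs10 is a regulator of G protein signalling that switches off G alpha subunits, Inpp4b is a lipid phosphatase acting on a product of PI3 kinase, and Gpr155 is a cholesterol sensor of the lysosome that acts on mTORC1. Dscam is a large adhesion molecule of the immunoglobulin superfamily, best known from neurons, and 1700017B05Rik is a protein-coding gene named by its cDNA clone.

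Kept barcodes numbered 3676 in naive lung, 4367 in naive blood, 4680 in 6 h lung, 2746 in 6 h blood, 3575 in 14-day lung and 2069 in 14-day blood. Summed unique molecular identifiers (UMIs) per group ranged from 16936897 to 35922737, and median UMIs per cell from 5909.5 to 7524. The 8 NK markers summed to 15596 counts per 1000000 UMIs (CPM) in 14-day lung and to 19053 to 22983 elsewhere, each above 10 CPM in every group. T cell markers summed to 301.6 to 394.3, myeloid markers to 17.1 to 95.0 and B cell markers to at most 1.59 CPM. Libraries shared 7 to 16 cell barcodes per pair. The share of UMIs that free RNA could supply was limited to 7.97% for the naive library, 3.96% for the 6 h library and 2.98% for the 14-day library.

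The genes differ widely in length (GENCODE M21, GRCm38). Inpp4b spans 785 kb (chr8:81342556-82127914, plus strand) and Dscam 580 kb (chr16:96590840-97170752, minus strand), with introns making up 98.3% and 98.5% of each. Rgs10 (chr7:128373621-128418758, minus strand), Gpr155 (chr2:73341506-73386572, minus strand) and Ahr (chr12:35497974-35535038, minus strand) span 45.1, 45.1 and 37.1 kb. 1700017B05Rik (chr9:57253117-57262612, minus strand) and Isg20 (chr7:78913424-78920396, plus strand) are short, at 9.5 and 6.97 kb. Inpp4b and Rgs10 each hold 1 other annotated gene on the same strand, Gm17072 and Gm15503, so some of their reads could be shared. Whether introns were counted is not given in the sources used here.

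The bases before the transcription start are shown for Isg20, Inpp4b and Dscam, which stood among the largest 14-day ratios, because Ahr, itself a DNA-binding factor, is among the 7. The sequences are from RefSeq (GRCm38.p6), run 5′ to 3′ on the gene's strand and end at the start of the GENCODE gene, and capitals mark the AHR core GCGTG or its complement.
Isg20, chr7:78913174-78913423, plus strand: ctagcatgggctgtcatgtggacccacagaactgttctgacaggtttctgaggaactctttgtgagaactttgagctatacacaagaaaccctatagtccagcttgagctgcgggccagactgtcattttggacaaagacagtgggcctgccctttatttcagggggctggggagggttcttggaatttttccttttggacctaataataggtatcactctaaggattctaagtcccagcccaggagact
Inpp4b, chr8:81342312-81342555, plus strand: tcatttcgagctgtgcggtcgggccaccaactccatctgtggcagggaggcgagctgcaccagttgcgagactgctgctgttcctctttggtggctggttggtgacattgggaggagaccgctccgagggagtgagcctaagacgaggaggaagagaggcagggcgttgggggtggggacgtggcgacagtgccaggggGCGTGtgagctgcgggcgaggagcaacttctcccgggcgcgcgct
Dscam, chr16:97170753-97170985, minus strand: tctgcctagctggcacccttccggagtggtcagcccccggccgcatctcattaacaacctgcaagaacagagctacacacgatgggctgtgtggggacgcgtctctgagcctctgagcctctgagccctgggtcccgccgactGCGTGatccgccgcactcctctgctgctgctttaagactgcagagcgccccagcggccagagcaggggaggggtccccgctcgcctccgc

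RefSeq windows of 300 bases around the start were found for 6 of the 7 genes, 8 windows in all, with none for Ahr. The AHR core was present in 2 of the 8, those of Inpp4b and Dscam, and in 32.4% of all 32851 windows. An interferon response element (GAAA, any 2 bases, GAAA), an AP-1 site (TGANTCA) and a SMAD palindrome (GTCTAGAC) were in none of the 8, against 3.44%, 7.81% and 0.213% of all windows. A RUNX site (TGTGGT) was in 2 of 8, in windows of Isg20 and 1700017B05Rik, and in 16.8% of all. Both strands were searched. These letters are a description of the windows and not binding sites.

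Levels in the 6 groups are given in CPM with exact Poisson 95% intervals, which cover counting error only, as do all intervals here. The intervals of CPM and of CPM ratios take each UMI as independent. They are too narrow where few cells hold many UMIs of a gene, as with the 1545 Dscam UMIs from 229 cells of 14-day lung. The effectors and regulators of signalling come first. Isg20 stood at 2.68 in naive lung, 2.50 in naive blood, 3.81 in 6 h lung, 3.08 in 6 h blood and 3.66 in 14-day blood, and at 49.4 (46.8 to 52.0) in 14-day lung. Rgs10 stood at 1.49, 1.97, 1.78 and 2.49 in naive lung, naive blood, 6 h lung and 6 h blood, at 26.6 (24.7 to 28.6) in 14-day lung and at 2.60 in 14-day blood. For both genes 14-day lung was the only high group, and the other 5 lay between 1.49 and 3.81.

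Inpp4b had the most UMIs of the 7 in every group. It stood at 20.3 in naive lung, 24.2 in naive blood, 28.2 in 6 h lung, 28.8 in 6 h blood, 176.8 (172 to 181.8) in 14-day lung and 41.0 (38.0 to 44.2) in 14-day blood. Gpr155 stood at 8.05, 8.31, 12.1 and 7.61 in naive lung, naive blood, 6 h lung and 6 h blood, at 33.8 (31.7 to 36.0) in 14-day lung and at 6.38 in 14-day blood. Inpp4b was thus also at its second highest in 14-day blood, where Gpr155 was at its lowest.

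Ahr had a standing tissue difference. It stood at 17.5 (15.8 to 19.3) in naive lung against 6.54 (5.66 to 7.52) in naive blood, at 19.3 in 6 h lung against 8.79 in 6 h blood, and at 77.1 (73.9 to 80.4) in 14-day lung against 8.09 in 14-day blood. 1700017B05Rik had the same order, with 11.2 and 5.84 in naive lung and blood, 12.4 and 7.16 at 6 h, and 52.0 (49.3 to 54.7) and 10.3 (8.86 to 12.0) at 14 days. In both genes lung exceeded blood within each library, with intervals that did not overlap.

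Dscam followed another course. It stood at 4.39 (3.58 to 5.32) in naive lung, 10.3 (9.19 to 11.5) in naive blood, 16.2 (14.9 to 17.5) in 6 h lung, 20.7 (18.9 to 22.7) in 6 h blood, 54.8 (52.1 to 57.6) in 14-day lung and 7.68 (6.41 to 9.11) in 14-day blood. Blood was above lung in the naive and 6 h libraries and below it at 14 days. Both tissues were higher at 6 h than in naive mice, so the difference from naive mice at 6 h was not limited to lung.

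**Figure D1:**
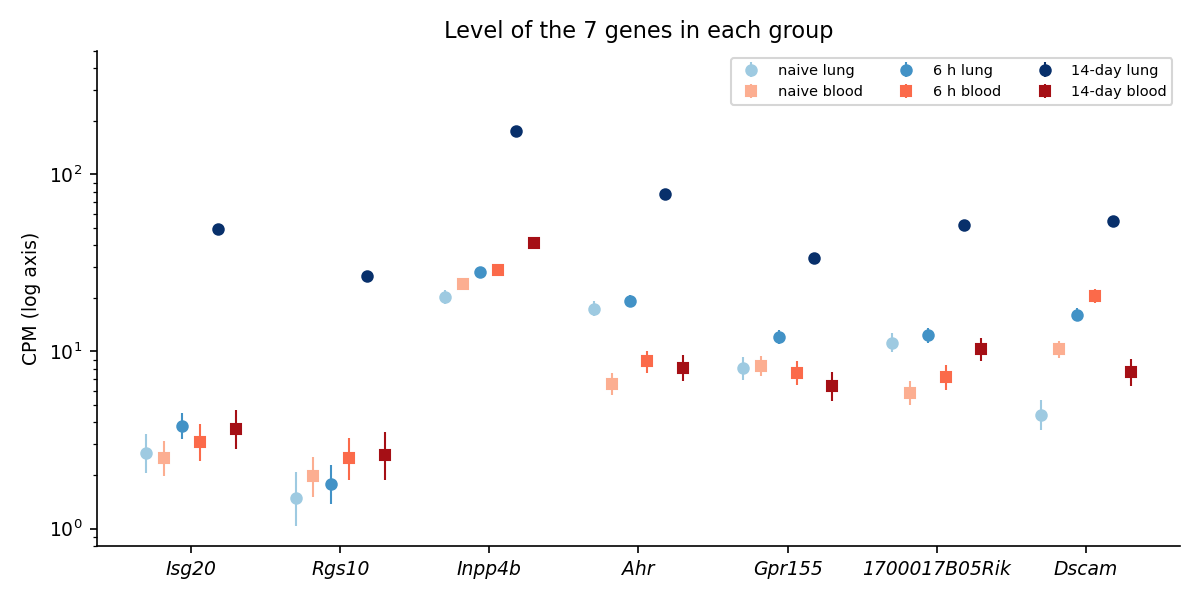
Level of each of the 7 genes in the 6 groups, as CPM on a log axis; points are group sums, bars exact Poisson 95% intervals, circles lung and squares blood. The 14-day lung point is the highest for every gene, from 26.6 for Rgs10 to 176.8 for Inpp4b.

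Compared with naive lung, 14-day lung was higher for all 7 genes. The fold was 18.4 (14.3 to 24.1) for Isg20, 17.8 (12.7 to 25.8) for Rgs10, 12.5 (10.2 to 15.4) for Dscam and 8.72 (7.94 to 9.60) for Inpp4b. It was lower for 1700017B05Rik at 4.64 (4.06 to 5.31), Ahr at 4.41 (3.97 to 4.92) and Gpr155 at 4.20 (3.59 to 4.93). The intervals of the last 3 overlap. The genes held ranks 14 (Isg20), 15 (Rgs10), 24 (Dscam), 30 (Inpp4b), 47 (1700017B05Rik), 48 (Ahr) and 50 (Gpr155) among the 8108 genes that reached a level of 10 CPM in either group. A ratio of 2-fold or more was reached by 7 of 7 members, where 1.73% of all genes were higher and 1.84% lower by that much. The members were selected on such values, so nothing is read from that count. The median log2 ratio was 3.12 for the members and -0.19 for all genes.

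Within the 14-day library, lung exceeded blood for 7 of 7 genes by 2-fold or more, against 2.94% of 8103 genes higher and 0.494% lower. The log2 ratio of lung over blood was 3.75 for Isg20, 3.36 for Rgs10, 3.25 for Ahr, 2.84 for Dscam, 2.41 for Gpr155, 2.33 for 1700017B05Rik and 2.11 for Inpp4b. The methods give collagenase digestion for lung and only red cell lysis for blood, so handling differed between the tissues. In this comparison both tissues were loaded in 1 library. Free RNA of that library could supply up to 28.7% of the Isg20 and 25.4% of the Rgs10 UMIs counted in 14-day blood, but only 2.13% and 2.48% of those in 14-day lung.

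In blood, no member reached 2-fold at 14 days. The 3 members above the level minimum were among the genes tested, and of 8117 genes 0.123% were that much higher and 0.136% lower. The log2 ratio was 0.82 (0.51 to 1.13) for 1700017B05Rik and 0.77 (0.61 to 0.92) for Inpp4b, the only 2 of the 7 members with an interval wholly above 0.5. Isg20 had 0.55, Rgs10 0.40 and Ahr 0.31. Gpr155 and Dscam had ratios below 0, at -0.38 (-0.72 to -0.050) and -0.43 (-0.73 to -0.13). The Inpp4b ratio turned to -0.36 (-0.60 to -0.13) when cells with UMIs of 2 or more ILC1 markers were left out.

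At 6 h, 6 of the 7 genes stayed under 2-fold in lung, 5 of the 7 being above the level minimum. Dscam alone passed, with a log2 ratio of 1.88 (1.58 to 2.20) and rank 2 of 8007 genes, of which 0.0624% were that much higher. Without cells holding a UMI of a T cell, B cell or myeloid marker, which kept 23.6% of 6 h lung cells, it was 0.68 (-0.40 to 1.85), and 1.68 when Trbc1 was not counted among those markers. Gpr155 had 0.59 (0.34 to 0.84), Isg20 0.51, Inpp4b 0.47, Rgs10 0.26, Ahr 0.14 and 1700017B05Rik 0.14. In blood, Dscam was again the only member past 2-fold at 6 h, with a log2 ratio of 1.01 (0.80 to 1.22), where 0.0739% of 8114 genes were that much higher.

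Among naive mice only Ahr, of the 4 members above the level minimum, was 2-fold higher in lung than in blood. Its log2 ratio was 1.42 (1.17 to 1.67), and 0.98 without the marker-bearing cells. Of all genes 3.28% were that much higher and 0.585% lower. Dscam was lower in naive lung by a log2 ratio of -1.23 (-1.57 to -0.91), and 1700017B05Rik stood at 0.94 (0.66 to 1.23). With 99% of tag counts required from 1 hashtag, which kept 52.2% of the lung cells and 92.8% of the blood cells, the 2 values were -0.90 and 1.07. Inpp4b, Gpr155, Isg20 and Rgs10 stood at -0.25, -0.045, 0.10 and -0.40. At 6 h Ahr was again 2-fold higher in lung, at 1.13 (0.90 to 1.37), with 3.07% of genes that much higher, and Dscam stood at -0.36.

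**Figure D2:**
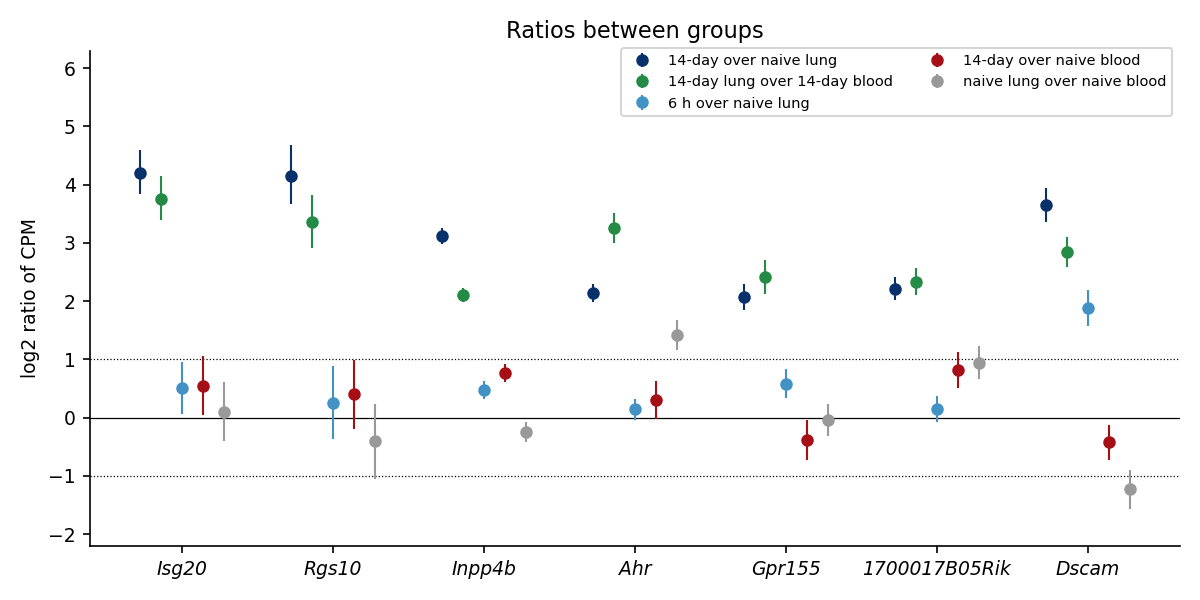
Log2 ratios of CPM for the 7 genes in 5 comparisons, with exact conditional binomial 95% intervals; dotted lines mark a 2-fold difference. The 14-day lung ratios over naive lung and over 14-day blood lie above 2 for all 7 genes, and those for 14-day over naive blood lie between -0.43 and 0.82.

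To compare cells of equal depth, each cell was thinned to 3000 UMIs at random, which left 3537 cells of 14-day lung. Of these 16.7% held a UMI of Inpp4b, 15.3% of Ahr, 12.8% of 1700017B05Rik, 10.2% of Isg20, 7.94% of Gpr155, 6.53% of Rgs10 and 3.99% of Dscam. Without thinning the shares were 23.9%, 26.1%, 27.0%, 19.2%, 16.3%, 14.1% and 6.41% in the same order, at a median of 6999 UMIs. In 14-day blood the thinned shares lay between 0.339% for Rgs10 and 4.80% for Inpp4b, and in naive lung between 0.306% for Rgs10 and 4.29% for Ahr. Each gene was therefore found in a minority of 14-day lung cells.

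The genes also differed in how their UMIs were spread over cells. A 14-day lung cell with Dscam held 6.75 UMIs of it on average without thinning and up to 62, and 129 of 229 such cells held 3 or more. For Inpp4b the mean was 5.82 with a highest value of 113. Ahr and Isg20 had 2.33 and 2.02 UMIs per positive cell, and Gpr155, 1700017B05Rik and Rgs10 had 1.64, 1.52 and 1.49. Dscam, the rarest of the 7 by share of cells, stood behind only Inpp4b and Ahr by summed CPM, through these few cells.

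Co-detection was measured in the thinned 14-day lung cells as the share of cells with both genes over the product of the single shares, so that 1 stands for independence. Of the 21 pairs 19 were above 1, 16 were at 1.5 or more, and the median was 1.69. The median over all pairs of a member with another gene was 0.982. Leaving out pairs with Dscam, 14 of 15 were at 1.5 or more. The exception was Rgs10 with Ahr, at 1.16 (0.83 to 1.57), with 41 cells against 35.3 under independence. That was the lowest of its values, which were 1.44 (1.03 to 1.96) with stricter cell filters and 1.59 without thinning.

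Among the 6 genes other than Dscam, the ratios were of like size. Isg20 with Rgs10 reached 2.03 (1.5 to 2.69) and Isg20 with Gpr155 2.02 (1.53 to 2.60). Inpp4b with Ahr reached 1.99 (1.72 to 2.30), with 180 cells holding both against 90.4 under independence. The other 11 pairs at 1.5 or more lay between 1.59 and 1.86. For Ahr, Inpp4b held rank 1 and Gpr155 rank 3 among 6394 partner genes, and for Gpr155, Isg20 held rank 1.

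Among the members, Dscam paired most with Inpp4b. Its ratio with Inpp4b was 3.86 (3.12 to 4.73), with 91 cells against 23.6 under independence, the highest of the 21. With Isg20 it was 1.59 (1.01 to 2.39), with Ahr 1.30 (0.86 to 1.87) and with Rgs10 1.2 (0.60 to 2.13). With 1700017B05Rik and Gpr155 it was 0.94 and 0.71, and both intervals included 1. The intervals for Ahr and Rgs10 included 1 as well. The ratio with Ahr was 1.92 (1.25 to 2.83) with stricter cell filters and 2.09 (1.45 to 2.91) without the 5% of cells with most UMIs. The Gpr155 ratio was 1.45 (1.09 to 1.89) without thinning. Leaving out cells with a T cell, B cell or myeloid marker kept 17.6% of 14-day lung cells. The Dscam ratio was then 8.12 with Inpp4b and 0 with Isg20, Rgs10, Ahr, Gpr155 and 1700017B05Rik. Only 630 cells were left before thinning, and Dscam was in 3.99% of thinned cells in the main setting. Few cells could hold both genes, so nothing is read from these values. When Trbc1 was not counted among those markers, it was 0.52 (0.14 to 1.33) with Rgs10 and 2.15 (1.33 to 3.28) with Isg20.

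For scale, a ratio of 1.5 or more was reached by 1.72% of partner genes for Isg20, 1.99% for Rgs10, 0.923% for Inpp4b, 0.516% for Ahr, 1.16% for Gpr155, 0.579% for 1700017B05Rik and 4.05% for Dscam, among genes found in at least 5% of cells. The members come from 1 cluster of these cells, so this background stands beside their counts and supports nothing.

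**Figure D3:**
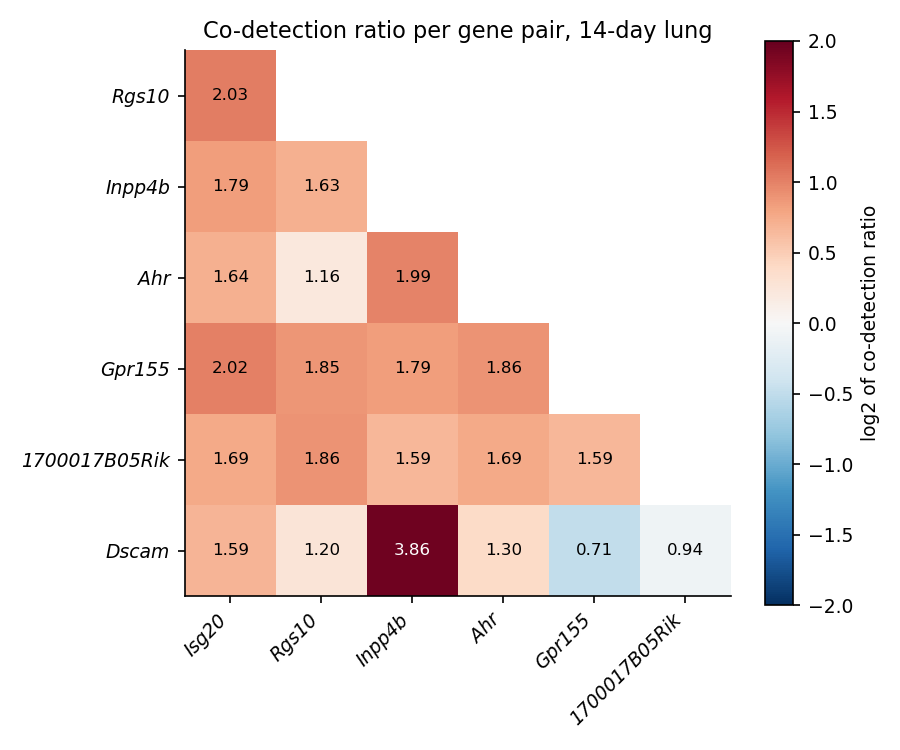
Co-detection ratio for the 21 pairs of genes in 3537 thinned 14-day lung cells, printed in each square and coloured by its log2, where 1 is independence. Inpp4b with Dscam has the highest ratio, 3.86, and Gpr155 with Dscam the lowest, 0.71.

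Counted per cell, 1967 of the 3537 thinned 14-day lung cells held none of the 7 genes, 845 held 1, 473 held 2, 207 held 3, 38 held 4 and 7 held 5. No cell held 6 or 7, which allows a share of up to 0.104%. Cells with 3 or more made up 7.12% (6.3 to 8.02), where the product of the single shares gives 2.75%. Cells with 4 or more made up 1.27% (0.93 to 1.70) against 0.281%. In the other 5 groups, where each gene was found in a smaller share of cells, 3 to 10 cells held 3 or more. They made up 0.167% in naive lung against 0.0195% from the product, 0.216% against 0.0511% in 6 h lung, 0.0699% against 0.0128% in naive blood, 0.147% against 0.0273% in 6 h blood and 0.145% against 0.0196% in 14-day blood. The share was thus above the product in all 6 groups.

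**Figure D4:**
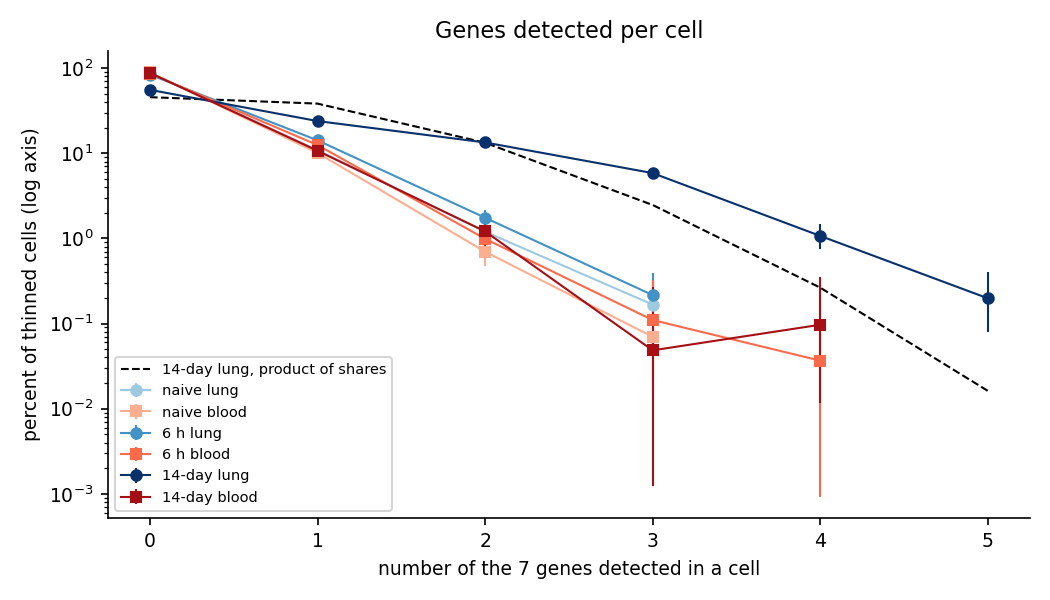
Share of thinned cells (log axis) by the number of the 7 genes detected, for the 6 groups, with exact binomial 95% intervals; counts of 0 cells are not drawn, and the dashed line gives the product of single shares in 14-day lung. In 14-day lung the share falls from 55.6% for none to 0.198% for 5 genes.

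The cells with more of the genes also had more of several TGF-beta and tissue-residency genes. The members were selected on a cluster of these same cells. Shares of other genes by members, here and below, are therefore a description and support nothing. Among cells with none, 1, 2 and 3 or more of the 7, Itga1 was found in 6.66%, 16.9%, 26.2% and 34.5%. It encodes CD49a, the alpha chain of a collagen-binding integrin. Pmepa1, a TGF-beta target that restrains the pathway, was found in 14.6%, 38.0%, 52.4% and 54.4%. Tgfb1 itself was found in 34.6%, 54.3%, 66.2% and 66.3%, and Smad7, the inhibitory Smad, in 31.5%, 50.1%, 56.7% and 56.3%. Smad3 and the repressor gene Prdm1 went the other way, from 44.9% to 26.2% and from 22.8% to 9.13%. Itgae hardly moved, at 1.42% and 1.19%, and Zfp683 was found in at most 0.211%.

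Genes of mature, cytotoxic NK cells ran in the opposite direction. Klrg1, an inhibitory receptor of terminally differentiated NK cells, was found in 32.2%, 14.0%, 4.65% and 1.59% of cells with none, 1, 2 and 3 or more. Cx3cr1 went from 18.1% to 3.17%, S1pr5, the receptor that guides exit from tissue, from 26.4% to 4.76%, and Prf1, encoding perforin, from 85.9% to 47.6%. Gzmb went from 82.1% to 40.1% and Gzma, present in nearly every cell, from 98.5% to 88.9%. Of the markers that define NK cells, Eomes hardly moved, at 44.6% and 43.3%, while Ncr1 went from 84.2% to 66.7%. Before thinning these cells had medians of 6709, 7347, 7713 and 8033.5 UMIs.

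Less differentiated NK genes were more frequent with more members. Emb went from 14.0% to 41.3%, Tcf7 from 9.10% to 20.6%, Thy1 from 5.69% to 17.9% and Ccr2 from 25.4% to 36.5%. Interferon-stimulated genes other than Isg20 did the same, with Ifit3 at 1.32% and 7.14%, Oasl2 at 0.864% and 7.54%, and Bst2 at 11.3% and 24.2%. The heat shock gene Hspa1b was at 7.32% and 8.33%.

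Split by 2 of these markers, 1215 cells had a UMI of Itga1 or Pmepa1. Isg20 was found in 19.6% (17.4 to 21.9) of them and in 5.34% (4.46 to 6.33) of the other 2322, and Rgs10 in 11.9% and 3.75%. Inpp4b was found in 28.7% and 10.4%, Ahr in 24.4% and 10.6%, Gpr155 in 14.0% and 4.78% and 1700017B05Rik in 22.8% and 7.54%. For Dscam the shares were 4.94% (3.79 to 6.31) and 3.49% (2.78 to 4.32), whose intervals overlap. The 2 markers differed for Dscam, with a co-detection ratio of 1.91 with Itga1 and 1.01 with Pmepa1. In naive lung the 292 cells with Itga1 or Pmepa1 held Isg20 in 0.685% and Rgs10 in 1.03%, and the 152 such cells of 14-day blood held each in 0.658%. In the cells without the markers Isg20 was found in 0.788% and Rgs10 in 0.243% in naive lung, and in 1.2% and 0.314% in 14-day blood. Inpp4b was found more often in marker-bearing cells there too, in 9.25% against 2.18% in naive lung and in 28.9% against 2.88% in 14-day blood. Ahr was as well, in 8.22% against 3.94% and in 6.58% against 1.62%, with intervals that did not overlap.

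ILC1, the other group 1 innate lymphocytes that this sort can hold, were followed by 7 markers (Tmem176a, Tmem176b, Cxcr6, Il7r, Gpr183, Rora and Tnfrsf25). Before thinning, cells with 2 or more of them made up 2.77% to 6.43% of a group, with 230 cells in 14-day lung at the upper end. The summed level of the 7 markers was 150.5 CPM in 14-day lung, 157.6 in naive lung and 76.1 to 144.4 in the other groups. None of the 7 was at 0 in any group. The sum hides opposite courses from naive to 14-day lung. Rora, its largest part, went from 115.8 to 67.7 CPM. Tmem176a went from 2.22 to 10.9, Tmem176b from 2.73 to 14.8, Gpr183 from 10.9 to 19.3 and Il7r from 22.2 to 32.4. Cxcr6 went from 3.45 to 4.72 and Tnfrsf25 from 0.38 to 0.71. Among thinned 14-day lung cells 114 had 2 or more. Of these 58.8% (49.2 to 67.9) held Inpp4b and 33.3% (24.8 to 42.8) Dscam, against 15.3% and 3.01% of the other 3423.

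In 14-day lung the other members differed less by these markers. Ahr was found in 27.2% (19.3 to 36.3) and 14.9%, Isg20 in 15.8% and 10.0%, Rgs10 in 8.77% and 6.46%, 1700017B05Rik in 11.4% and 12.8% and Gpr155 in 4.39% and 8.06%. In naive lung 75 cells had 2 or more. Inpp4b was found in 34.7% (24.0 to 46.5) of them and in 2.08% of the other 3515, and Ahr in 18.7% (10.6 to 29.3) and 3.98%. Rgs10 was found in 4% and 0.228%, Dscam in 4% and 0.512% and Gpr155 in 4% and 1.93%, each in 3 of the 75 cells. Isg20 was found in 0% and 0.797% and 1700017B05Rik in 1.33% and 3.13%. In 14-day blood 56.5% of the 69 cells with 2 or more held Inpp4b, 4.35% held Dscam, and none held Isg20 or Rgs10, which allows up to 5.21%. Leaving out all cells with 2 or more, the log2 ratio of 14-day over naive lung was 3.24 (2.89 to 3.61) for Dscam, 3.65 for Inpp4b and 2.09 to 4.33 for the other 5. The ratio of Inpp4b with Dscam within cells was then 3.04 (2.18 to 4.14). The 7 ratios all stayed above 2-fold without these cells, and that of Dscam was the one most reduced.

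**Figure D5:**
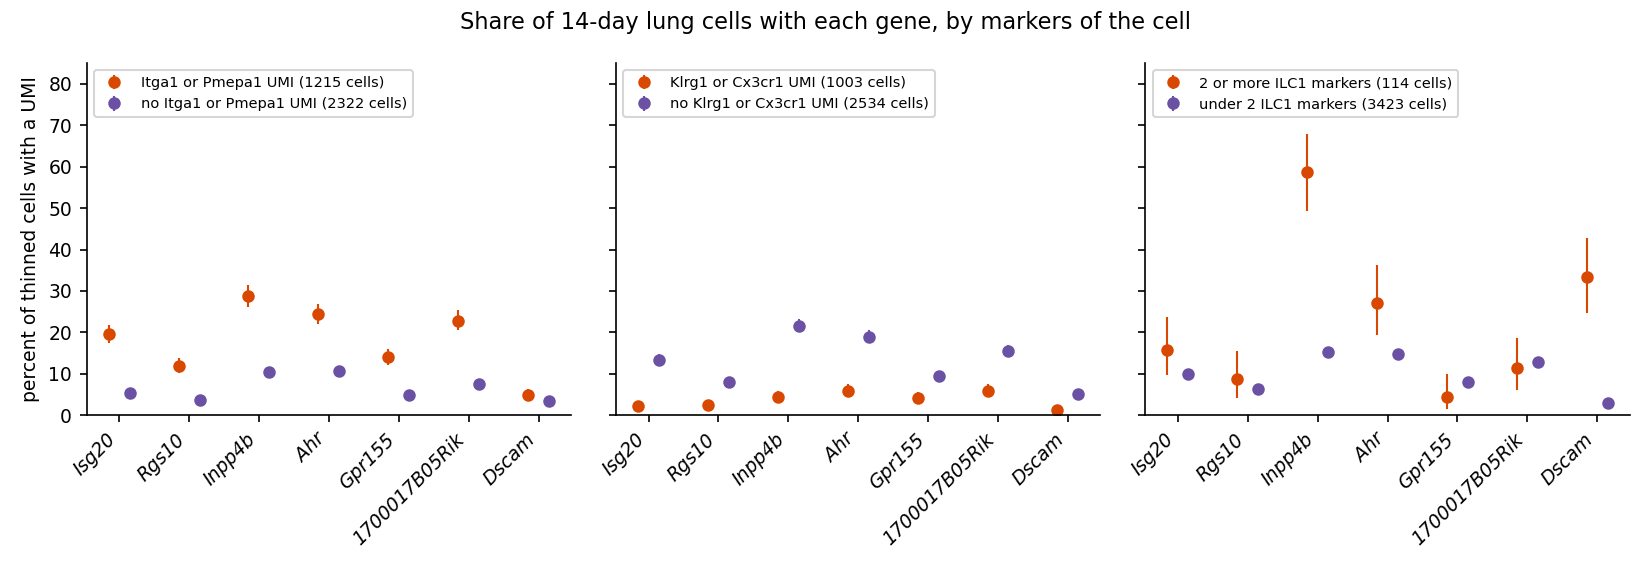
Share of thinned 14-day lung cells with a UMI of each gene, split by Itga1 or Pmepa1 (left), Klrg1 or Cx3cr1 (middle) and ILC1 markers (right), with exact binomial 95% intervals. Inpp4b and Dscam stand out in cells with 2 or more ILC1 markers, at 58.8% and 33.3%.

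Split by Klrg1 or Cx3cr1, the 1003 cells with a UMI of either held each of the 7 genes less often than the other 2534. Isg20 was found in 2.19% (1.38 to 3.30) and 13.4% (12.1 to 14.8), Inpp4b in 4.49% and 21.5% and Ahr in 5.98% and 19.0%. Rgs10 was found in 2.49% and 8.13%, Gpr155 in 4.19% and 9.43%, 1700017B05Rik in 5.88% and 15.5% and Dscam in 1.2% and 5.09%. In naive lung, where 1592 cells held Klrg1 or Cx3cr1, Isg20 was found in 1.13% and 0.501% and Gpr155 in 2.07% and 1.90%, with overlapping intervals, while Inpp4b was found in 1.88% (1.27 to 2.68) and 3.45% (2.70 to 4.35). The intervals in naive lung overlapped for 6 of the 7, all but Inpp4b.

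Genes that act with the members were taken from lists named with earlier results of these data known, and are counted at 2-fold in 14-day over naive lung. Of all 8108 genes tested there, 1.73% were that much higher and 1.84% lower, with a median log2 ratio of -0.19. Of 17 interferon-stimulated and exonuclease genes tested 10 were higher and none lower, with a median log2 ratio of 1.12. Ifit3, an antiviral effector, went from 1.45 to 25.0 CPM, Rsad2 from 1.45 to 14.1 and Bst2, which tethers virions, from 33.3 to 90.1. In 14-day blood none of 12 passed, with a median of -0.051, where 0.123% of all genes were higher and 0.136% lower. The exonucleases Rexo2 and Eri1 stood at log2 ratios of 0.074 and -0.43, apart from the interferon-stimulated genes of the list.

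Partners and targets of AHR that could be tested stayed under 2-fold. Of the 16 listed, 8 reached 10 CPM in either group, and all 8 were below that size, with a median log2 ratio of -0.26. Under that level Arnt2 went from 0.043 to 1.03, Ahrr from 0.085 to 0.18, Ido1 from 0 to 0.39 and Nqo1 from 0.34 to 0.18 CPM. Arnt, the dimer partner, went from 74.0 to 51 and Tiparp, a target that feeds back on the receptor, from 49.9 to 39.5 CPM. Cyp1a1, Cyp1a2, Cyp1b1 and Il22, well-known AHR targets, had no UMI in the thinned 14-day lung cells. Tiparp was 2-fold higher in lung than in blood at 14 days, at 39.5 and 17.5, and was so in naive mice too, at 49.9 and 21.5.

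Most of the genes listed beside Rgs10, Inpp4b and Gpr155 also stayed under 2-fold. Of 11 RGS and G protein genes Rgs16 was higher, from 17.5 to 37.2, and Rgs2 lower, from 354.8 to 162.4, with a median of -0.11. Of 12 phosphoinositide genes only Pik3r1, the regulatory subunit of PI3 kinase, passed, going from 951.1 to 453.1 CPM, with a median of -0.18. Inpp4a, the paralog of Inpp4b, went from 40.2 to 26.8. Of 16 lysosomal genes that control mTORC1 none passed, with a median of -0.15. These counts and medians stand beside 1.73% higher, 1.84% lower and a median of -0.19 over all genes. Inpp4b and Rgs10 were selected on these same cells, so nothing is read from their difference from the listed genes.

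Of 12 TGF-beta and residency genes 5 were higher and none lower, with a median log2 ratio of 0.76. Gzmc went from 2.81 to 74.1, Pmepa1 from 19.7 to 162.0, Itga1 from 14.5 to 70.8, Tgfb1 from 160.5 to 342.2 and the retention receptor Cd69 from 37.4 to 77.5 CPM. Of 10 mature NK genes only Zeb2, a factor of terminal maturation, passed, going from 1289 to 630.8, with a median of -0.61. None of 8 less differentiated NK genes passed, with a median of 0.022.

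Part of a list of dissociation stress genes was also higher in 14-day lung, and the cause was not tested. Of 10 dissociation stress genes 4 were higher in 14-day than in naive lung, with a median log2 ratio of 0.45. Over all genes 1.73% were higher and 1.84% lower. Fos, Junb and Atf3 stood at -0.060, -0.23 and -0.063. In 14-day lung over 14-day blood 7 of the 10 were higher and none lower, with a median of 2.96, against 2.94% and 0.494% of all genes. A UMI of Hspa1a or Hspa1b was held by 15.6% of 14-day lung cells against 0.595% to 2.14% elsewhere. Without those cells the 14-day lung ratios over naive lung were 4.19 for Isg20, 4.08 for Rgs10, 3.44 for Dscam, 3.00 for Inpp4b, 2.20 for 1700017B05Rik, 2.13 for Ahr and 2.09 for Gpr155 on the log2 scale. All 7 stayed above 2-fold, and 6 of them, all but Gpr155, were slightly smaller than with those cells. Longer genes had lower ratios in general, with a median log2 ratio of 0.061 in the shortest of 5 equal groups and -0.37 in the longest, to which Inpp4b and Dscam belong.

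Beyond the lists, genes with the most similar course over the 6 groups were found by Pearson's r with the mean log2 level of the 7, among 3428 genes with at least 50 CPM in 14-day lung. The 10 highest were Mapkapk3 (0.99), Ctla2b, Car2, Glp2r, Hbb-bs, Rbpj, Gzmc, Ctla2a, Plac8 and Gphn (0.97). The 6 points come from 3 libraries and share their depth. Rbpj, the effector of Notch signalling, stood at 92.8 in 14-day lung and at 25.4 to 33.3 elsewhere, and Plac8 at 114.1 and 9.74 to 24.2. The haemoglobin gene Hbb-bs owes its place to 1 barcode with 1427 of its UMIs.

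Within 14-day lung cells the closest genes by median co-detection ratio with the 7, among 4313 found in at least 10% of cells, were Itga1 (1.85), Pmepa1 (1.80), Pip5k1b (1.69), Plac8 (1.67), Ltb (1.65), Rnf149 (1.64), Rbpj (1.63), Retreg1 (1.61), Clec2i (1.53) and Oprm1 (1.51). All 10 were above 1 with each of the 7, though Pmepa1 with Dscam stood at 1.01. Ltb, a lymphotoxin subunit, reached 4.30 with Dscam and 1.17 with Gpr155, so it was nearer to some members than to others. Plac8 and Rbpj appear in both the rankings. The lowest were Klrg1 (0.269), Cma1 (0.304), Cdc20b (0.323), Rasgrp2 (0.337) and Sgk1 (0.341), each below 1 with all 7. Both ends were ranked by these same ratios, so their values with single members support nothing.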

How the data were processed

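3 libraries of sorted NK cells (10x Genomics 3′ v3.1) were analysed at the level of single cells. The authors deposited UMI counts per gene and hashtag for all barcodes, before cell calling and without normalization, from Cell Ranger (7.0.1 per the labels, 7.1.0 per the file headers) on GRCm38.p6 with GENCODE M23. Whether introns were counted is not given in the sources used here. Positions are from GENCODE M21, promoters from RefSeq.

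Barcodes with 800 to 5000 genes, at most 6% mt- counts and 90% or more of tag counts from 1 hashtag were kept, and 2.08% to 4.08% of barcodes past the first filters had no clear tag. No doublet caller was run. Counts were summed per library and tissue and scaled to 1000000 UMIs. Each time point is 1 library, so time points could not be tested. Lung against blood, which share a library, was not tested either, because the members were selected on these cells. Ratios are given with exact conditional binomial 95% intervals, and called at 2-fold for genes reaching 10 CPM in either group. Shares and co-detection use cells thinned to 3000 UMIs, which left out 6 to 86 cells per group. Free RNA was limited from marker genes in barcodes with 1 to 100 UMIs. The members, lists and rules were chosen with earlier results of these data known. Genes named are the 7 members, the listed pathway and marker genes, the 10 most alike over groups, and the 10 highest and 5 lowest by co-detection. Ratios and co-detection were tested on simulated data. Python 3.11.15 with numpy 2.4.6, scipy 1.17.1, pandas 2.3.3 and matplotlib 3.10.9 was used. The 15 alternatives change filters, tags, totals, free RNA, cell types, stress cells and thinning.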

Additional observations from a re-analysis of the deposited data

Results flagged for a closer look

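Gpr155 and Dscam had opposite signs in the 2 tissues. The log2 ratio of 14-day over naive cells was 2.07 in lung and -0.38 in blood for Gpr155, and 3.64 in lung and -0.43 in blood for Dscam. The thinned shares of blood cells with either gene had overlapping intervals between naive and 14-day mice. Inpp4b and Dscam had opposite signs between time points. The log2 ratio of lung over blood was 2.11 at 14 days and -0.25 in naive mice for Inpp4b, and 2.84 at 14 days and -1.23 in naive mice for Dscam. In naive mice Inpp4b was -0.027 with stricter cell filters and 0.070 with 99% of tag counts, so its sign depends on the setting. With 1 library per time point these differences were not tested.

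Barcodes with 1 to 100 UMIs, which hold mainly free RNA and enter no comparison, held more of all 7 genes in the 14-day library than in the naive library. In CPM the 14-day level was 35.2 for Isg20, 22.2 for Rgs10, 77.4 for Inpp4b, 32.0 for Ahr, 21.6 for Gpr155, 36.3 for 1700017B05Rik and 23.8 for Dscam. The naive levels were 3.15, 1.35, 14.3, 5.86, 6.31, 10.4 and 5.26 in the same order. These barcodes were not split by tissue.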

How the results depend on the processing

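No paired analysis was possible because the values come from no test: each time point is 1 library with no labelled replicate number and none to leave out. Lung and blood share each library, but a test paired by library was not run, since the members were selected on these cells. In 14-day over naive lung and in 14-day lung over blood, all 7 log2 ratios stayed above 1 under every alternative run, with Dscam in lung at 1.61 in place of 3.64 without marker-bearing cells. Of 385 alternative values of single ratios 329 moved by less than counting error, 45 moved by more and 11 changed sign. Of 252 values of pairs 221 moved by less and 31 by more. Alternatives asking for 2000 UMIs or for 100 tag counts per cell kept at least 99.4% of cells in each group. Values under these could hardly move, so the counts of unmoved values say little. At a minimum of 50 CPM 3 of the comparisons had no member left and gave no value.

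For 14-day over naive lung the median of the 7 log2 ratios, 3.12, was 2.87 with stricter cell filters, 2.90 with 99% of tag counts, 3.29 without mitochondrial and ribosomal genes in the totals, 2.86 without the 5% of cells with most UMIs and 2.67 at 50 CPM. Removing cells with a UMI of a T cell, B cell or myeloid marker gave 2.00, but it kept 17.6% of 14-day lung cells, since 78.5% of them hold a UMI of Trbc1. With Trbc1 left out of those markers, an alternative chosen after seeing the data, 80.1% of cells stayed and the median was 3.32. For 14-day lung over blood the median of 2.84 became 2.56 without the cells of most UMIs, 3.36 without cells of 2 or more ILC1 markers and 3.24 without marker-bearing cells when Trbc1 was not counted. For 6 h over naive lung 0.47 became 0.29 with 99% of tag counts, 0.28 without the cells of most UMIs and 0.23 without all marker-bearing cells.

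Some values changed sign, and not all of them were near 0. In the main setting Inpp4b stood at 0.765 (0.613 to 0.917) for 14-day over naive blood. It stood at 0.474 (0.315 to 0.634) for 6 h over naive lung. The naive lung over naive blood median, -0.045, was 0.015 with stricter cell filters, 0.070 with 99% of tag counts and -0.53 without marker-bearing cells, and there Gpr155 was 0.015 with stricter filters, and Gpr155 0.032 and Inpp4b 0.070 with 99% of tag counts. For 14-day over naive blood the median of 0.40 was -0.56 without marker-bearing cells, with Rgs10 at -1.35, Inpp4b at -1.94 and Ahr at -0.17. Rgs10 was -0.017 after subtracting free RNA, and Inpp4b was -0.36 without cells of 2 or more ILC1 markers. For 6 h over naive lung Inpp4b was -0.070 with stricter filters, 1700017B05Rik -0.030 with 99% of tag counts and Rgs10 -0.11 without marker-bearing cells when Trbc1 was not counted. The cause was not tested.

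Cells with 4 or more members made up 1.27% and became 1.76% with 99% of tag counts, 0.328% without marker-bearing cells, 5.13% at 5000 UMIs and 9.99% without thinning, so the share depends on depth. The median pair ratio stayed between 1.55 and 1.95.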

Other observations

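Genes that co-occur most with Dscam in thinned 14-day lung cells, chosen after their values were seen, were Lilrb4a (ratio 4.38), Ltb (4.30), Inpp4b (3.86), Ikzf2 (3.66), Crtam (3.12), Pkp4 (3.04), Thy1 (3.01) and Dock9 (2.96), with 21 to 94 cells holding both. Lilrb4a encodes an inhibitory receptor of the LILR family, Ikzf2 the transcription factor Helios, and Crtam an adhesion receptor of cytotoxic cells. Of these 8 genes Inpp4b is the only member.

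Hbb-bs was found in 2 barcodes of 14-day lung, with 1427 UMIs in the higher, and Hba-a1 in 2, with 493 in the higher. Trbc1 was found in 70.5% to 78.5% of cells in every group without thinning, whereas Cd3e was found in 0.192% to 0.923%.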
